A study of Homo sapiens with 16 samples.

Results

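The H3K27ac landscape of TWEAK-treated Hs578T cells was compared between control cells and cells with the receptor Fn14 knocked out (Fn14 KO), which asks what the acetylation pattern of stimulated cells looks like when the receptor of the stimulus is disrupted. Hs578T is a long-established human breast cancer cell line of the triple-negative (TNBC), mesenchymal-like basal kind. Both groups were kept in Opti-MEM for 8 h and then in 10 ng/ml TWEAK for 48 h, with fresh TWEAK given at 24 h, and both were assayed by H3K27ac ChIP-seq with 2 lists of broad peaks each, so that 4 of the 16 lists of the series were compared. The Fn14 KO cells had been made with a doxycycline-inducible CRISPR vector carrying guides against TNFRSF12A, the gene of Fn14, and were identified by western blotting and Sanger sequencing, whereas the labels call the other cells control without naming what they carried. The untreated control and Fn14 KO cells of the same line (2 lists each) and the 8 lists of MDA-MB-231, another TNBC line with the same 4 groups, served only for comparison. All peaks that overlapped by 1 bp or more across the 16 lists were joined, and 55219 merged regions of 64545 had a peak in at least 2 lists. A region was called control-only if both control TWEAK lists and neither Fn14 KO TWEAK list had a peak there, and KO-only in the reverse case. By this rule 3825 control-only and 3619 KO-only regions were found, 7444 in all.

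TWEAK is a cytokine of the TNF family, and Fn14 is its small transmembrane receptor. Fn14 binds TRAF adaptor proteins, which with the ubiquitin ligases BIRC2 and BIRC3 (cIAP1 and cIAP2) control the NF-κB and MAPK pathways. NF-κB dimers bind short GC-rich sites in promoters and enhancers of inflammatory genes, while the MAPK pathway acts on AP-1 factors of the JUN and FOS families. Acetylation of lysine 27 on histone H3 marks active promoters and enhancers, and long clusters of acetylated enhancers are called super-enhancers.

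Sequences of differing regions are given first, from hg38 on the plus strand. The top-ranked control-only region lay in an intron of VNN1 (vanin-1, a pantetheinase) and the third-ranked far from any protein-coding start, while TTC7B is the nearest gene of the second-ranked KO-only region. These 3 windows show the central 300 bp of the region, and capitals mark a match to the AP-1 motif TGANTCA, which the VNN1 window does not hold. The windows nearest SEC61B, TTLL2 and CACNA2D4, also among the 3 highest-ranked regions of their direction, hold no such match and are not printed.
VNN1 intron, chr6:132686687-132686986: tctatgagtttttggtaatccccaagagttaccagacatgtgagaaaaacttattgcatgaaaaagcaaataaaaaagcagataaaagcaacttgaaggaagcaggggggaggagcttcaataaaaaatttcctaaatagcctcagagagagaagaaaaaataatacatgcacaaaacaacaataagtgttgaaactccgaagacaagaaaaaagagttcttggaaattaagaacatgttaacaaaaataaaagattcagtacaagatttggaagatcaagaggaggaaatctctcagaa
Control-only region, chr2:7826012-7826311: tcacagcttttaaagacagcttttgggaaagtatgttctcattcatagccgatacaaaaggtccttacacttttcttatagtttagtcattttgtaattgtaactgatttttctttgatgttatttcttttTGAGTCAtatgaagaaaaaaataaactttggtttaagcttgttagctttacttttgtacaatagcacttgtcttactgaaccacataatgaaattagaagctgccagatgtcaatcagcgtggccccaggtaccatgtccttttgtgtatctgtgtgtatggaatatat
KO-only region nearest TTC7B, chr14:90513112-90513411: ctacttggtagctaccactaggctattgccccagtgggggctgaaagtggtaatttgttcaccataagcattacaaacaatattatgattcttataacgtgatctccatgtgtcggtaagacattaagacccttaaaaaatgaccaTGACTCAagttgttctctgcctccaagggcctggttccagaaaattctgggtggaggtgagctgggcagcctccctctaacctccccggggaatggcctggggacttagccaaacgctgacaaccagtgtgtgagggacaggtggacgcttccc

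The next 6 windows of 60 bp lie in control-only regions near genes of TWEAK signalling, NF-κB and chemokines, and capitals mark the match to the NF-κB consensus. They were chosen after their values were seen, to show what such a match looks like beside the counts given further on.
NFKB1, chr4:102553019-102553078: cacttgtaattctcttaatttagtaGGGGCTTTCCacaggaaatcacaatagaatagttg
TNFAIP3, chr6:137882702-137882761: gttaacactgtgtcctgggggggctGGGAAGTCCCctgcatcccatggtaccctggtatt
TRAF2, chr9:136934746-136934805: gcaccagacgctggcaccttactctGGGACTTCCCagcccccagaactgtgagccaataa
CCL20, chr2:227813738-227813797: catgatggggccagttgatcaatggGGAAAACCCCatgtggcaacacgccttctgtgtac
CCL5, chr17:35890192-35890251: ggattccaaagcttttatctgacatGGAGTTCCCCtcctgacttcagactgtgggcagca
CXCL8, chr4:73722187-73722246: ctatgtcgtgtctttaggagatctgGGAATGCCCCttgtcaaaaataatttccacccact
By the rule, none of these 6 regions had a peak in either Fn14 KO TWEAK list, and none had a peak in an untreated Hs578T list.

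The lists of both genotypes were of like size. Control TWEAK lists held 44431 and 46989 peaks and Fn14 KO TWEAK lists 45802 and 45885. Peaks covered 77.8 and 84.0 Mb in control cells and 88.9 and 87.7 Mb in Fn14 KO cells, so the Fn14 KO lists covered more than either control list. The mean difference of 7.38 Mb gave p = 0.333 by an exact two-sided permutation test (n = 2 lists per group), the smallest p that 2 against 2 allows (Benjamini-Hochberg adjusted p = 0.556 over 5 per-list values). The median fold enrichment, the deposited ratio of ChIP signal to local background, was 5.47 and 5.45 against 5.26 and 5.25. The sequencing depth is unknown, because peak lists carry no read totals. As no source says whether the replicates came from separate cultures of each genotype, p-values below measure only the spread between these lists. Of 9 markers of mesenchymal-like basal B cells, 7 had a peak at their start in all 4 lists, while TWIST1 had none. Of 9 luminal markers, ELF3, EPCAM, GRHL2 and GATA3 had a start peak in all 4 lists and CDH1, ESR1, ESRP1, FOXA1 and PGR had none. Length under peaks around the 9 luminal genes summed to between 31.2 and 34.9 kb in control TWEAK lists against 57.9 to 66.3 kb in the Fn14 KO TWEAK lists, with 39.2 to 42.0 kb in untreated control and 56.7 to 65.3 kb in untreated Fn14 KO lists. Of 7 blood and endothelial markers, PECAM1 had a peak within 2 kb of a transcript start in all 4 lists and CDH5 in both control lists, where the CDH5 region merged over lists was called in all 4. Neither had a peak within 2 kb of the outermost start of the gene. CD3E, PTPRC, SPI1 and VWF were among those with no start peak, and the summed length of the 7 was between 65.7 and 76.2 kb in control and between 83.2 and 86.5 kb in Fn14 KO TWEAK lists. Whether these shifts bear on the results below was not tested.

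Control-only regions made up 6.93% of all consensus regions and KO-only regions 6.55%. Both other ways to set 2 of the 4 lists against the remaining pair gave 534 and 514 differing regions, so the genotype count of 7444 was 14.2 times their mean. A further 34135 regions (61.8%) had a peak in all 4 lists, 1926 lacked a peak in just 1 Fn14 KO list and 2417 in just 1 control list. The untreated lists of the same line differed by genotype in 2359 regions (1242 control-only and 1117 KO-only), against 889 and 1067 for their other groupings, and the TWEAK-treated lists of MDA-MB-231 in 5204. The excess of 5085 differing regions with TWEAK over those without gave p = 0.167 in an exact two-sided permutation test. The test exchanged treatments within each genotype, and 0.0556 is the smallest p possible. By overlap of covered bases (Jaccard index, shared bases over all covered bases), Fn14 KO TWEAK lists reached 0.657 to 0.694 with control TWEAK lists, 0.747 to 0.768 with untreated control lists and 0.787 to 0.798 with untreated Fn14 KO lists. Replicates of control TWEAK and of Fn14 KO TWEAK reached 0.793 and 0.788. The TWEAK-treated Fn14 KO lists thus overlapped untreated lists of either genotype more than they overlapped TWEAK-treated control lists.

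The control-only and KO-only regions divided differently by the untreated lists. Of the 3825 control-only regions, 2195 (57.4%) had no peak in any of the 4 untreated lists, and 384 (10.0%) were already present in both control and no Fn14 KO list before TWEAK. Another 640 (16.7%) had a peak in 1 untreated control list alone, 69 were in all 4 untreated lists and 14 differed the opposite way. Of the 3619 KO-only regions, 179 (4.95%) had no untreated peak, whereas 1523 (42.1%) had a peak in all 4 untreated lists. A further 435 (12.0%) were already in both Fn14 KO and no control list before TWEAK, 1083 (29.9%) were in some lists of both genotypes and 48 differed the opposite way. Seen from the untreated side, 384 of the 1242 untreated control-only regions (30.9%) remained control-only with TWEAK, and 435 of the 1117 untreated KO-only regions (38.9%) remained KO-only. Over all consensus regions, 66.6% had a peak in all 4 untreated lists and 10.4% in none, while 2.25% were untreated control-only and 2.02% untreated KO-only. Among the Hs578T lists, the majority of control-only regions were therefore called in treated control cells alone. KO-only regions mostly had a peak in some untreated list and were uncalled in TWEAK-treated control cells. Their share in all 4 untreated lists was nevertheless below that over all consensus regions. The shares depended in part on the lists used, as leaving out 1 of the 4 TWEAK lists relaxes the rule for that genotype and moved them. The share of control-only regions with no untreated peak then lay between 45.6% and 56.9%. The share of KO-only regions in all 4 untreated lists lay between 31.5% and 51.0%.

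**Figure D1:**
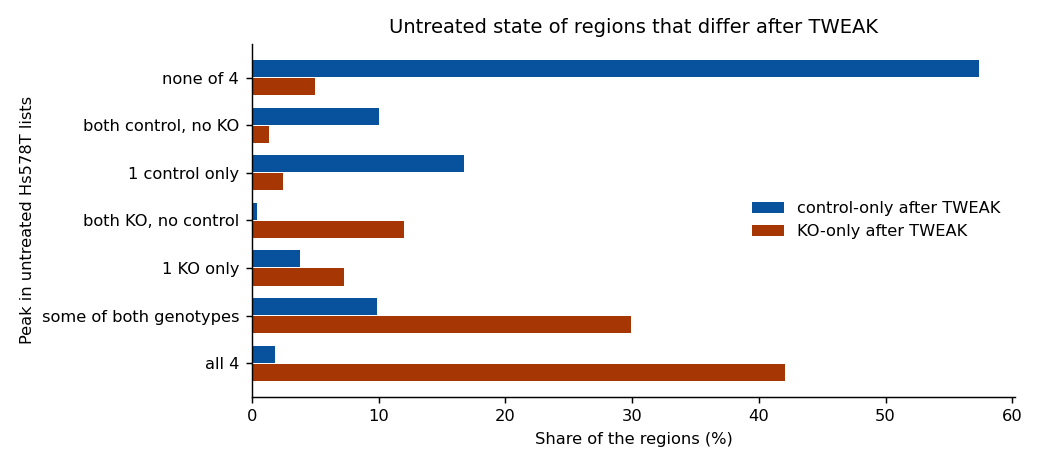
Percentage of control-only and of KO-only regions of TWEAK-treated Hs578T cells (bars, from 0) by which untreated Hs578T lists had a peak there. Control-only regions were mostly without any untreated peak (2195 of 3825), while the largest class of KO-only regions had a peak in all 4 untreated lists (1523 of 3619). Over all consensus regions, 10.4% had no untreated peak and 66.6% had a peak in all 4 untreated lists.

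Lists that the rule did not use showed in which cells the same regions were called. Of the control-only regions, 27.4% ± 7.75 (SD, n = 2) were called in untreated control and 9.59% ± 0.924 in untreated Fn14 KO Hs578T cells. In MDA-MB-231, 68.7% ± 3.16 of them were called in control TWEAK lists, against 16.7% ± 6.80 in untreated control, 24.6% ± 10.3 in untreated Fn14 KO and 19.9% ± 0.573 in Fn14 KO TWEAK lists. Of the KO-only regions, 62.2% ± 0.938 were called in untreated control and 81.5% ± 2.75 in untreated Fn14 KO Hs578T cells. In MDA-MB-231 these shares were 13.2% ± 0.567 in control TWEAK, 32.9% ± 3.24 in Fn14 KO TWEAK, 47.4% ± 8.95 in untreated control and 39.8% ± 17.1 in untreated Fn14 KO lists. Over all consensus regions, the MDA-MB-231 group means lay between 68.5% and 72.3%. In untreated Hs578T lists the means over all consensus regions were 78.2% in control and 77.4% in Fn14 KO cells. The difference between Fn14 KO and control TWEAK lists of MDA-MB-231 was −48.9 percentage points at control-only and 19.7 at KO-only regions, each with p = 0.333 (exact two-sided permutation test, n = 2 lists per group, the smallest p possible). Less the same difference in untreated lists, it was −56.8 points at control-only regions (exact permutation p = 0.167) and 27.3 points at KO-only regions (exact permutation p = 0.222), and all 4 adjusted p-values were 0.333. The untreated MDA-MB-231 Fn14 KO lists were uneven, with 46295 and 39544 peaks, which is seen in the SDs of 10.3 and 17.1.

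**Figure D2:**
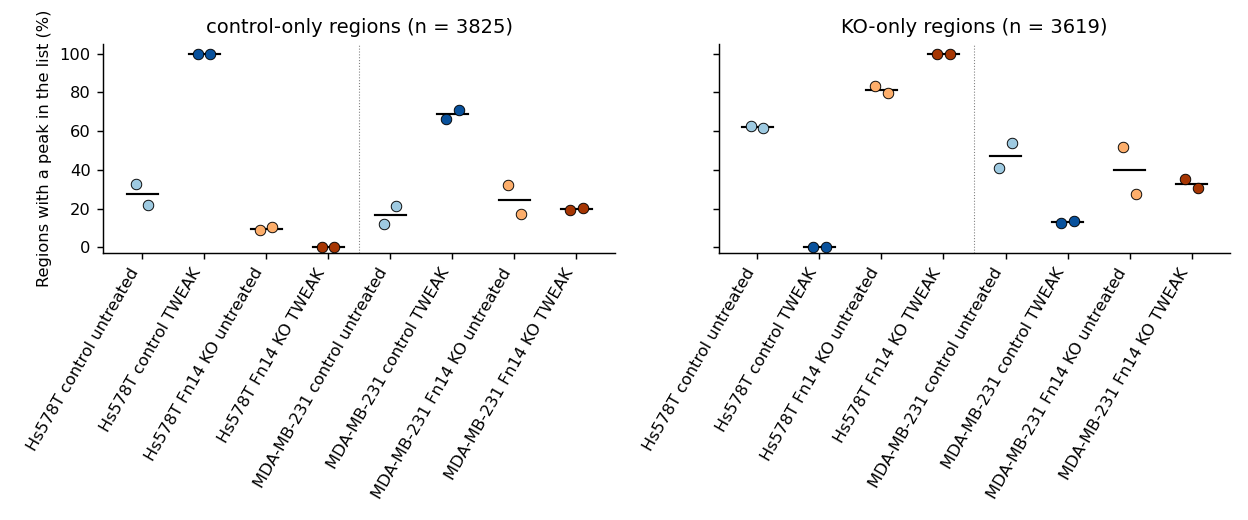
Percentage of control-only and KO-only regions of TWEAK-treated Hs578T cells with a peak in each of the 16 lists, by cell line and group; points are lists. The 4 TWEAK-treated Hs578T lists are fixed at 100% or 0% by the rule, and in MDA-MB-231 the control TWEAK lists stand highest for control-only regions (68.7% on average) and lowest for KO-only regions (13.2%).

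Differing regions lay far from gene starts and were narrow and weakly enriched. Within 2 kb of a protein-coding start were 5.73% of control-only and 11.1% of KO-only regions, against 34.6% of the regions in all 4 lists and 25.1% of all consensus regions. The median distance to a start was 37.3 kb for control-only and 27.1 kb for KO-only regions, and 84.7% and 77.1% touched neither an exon nor a start. Their median widths were 1029 and 1121 bp, compared with 2386 bp for regions in all 4 lists. Control-only regions had a median fold enrichment of 3.55 and 3.57 in the control lists, and KO-only regions 3.27 and 3.24 in the Fn14 KO lists, while regions in all 4 lists lay between 6.65 and 6.96. Most differing regions were thus near the lower end of what was called, where a small change in signal can decide whether a peak is called. Per chromosome, 3.64% to 9.48% of the consensus regions were control-only and 4.39% to 8.73% were KO-only, while regions that differed the same way untreated were at most 1.14% and 1.49%.

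The 10 control-only regions with the highest fold enrichment were strong exceptions. The first (chr6:132685098-132688577), in the VNN1 intron shown above, had a fold enrichment of 18.9 and 19.98 in control TWEAK lists, 2.90 and 3.49 in untreated control lists, 2.85 and 2.64 in untreated Fn14 KO lists and no peak in Fn14 KO TWEAK lists. In MDA-MB-231 it reached 15.7 and 17.4 in control TWEAK lists and 3.72 in a single Fn14 KO TWEAK list. A region 16.4 kb from SEC61B (chr9:99238643-99241162), a subunit of the protein translocation channel, had 16.4 and 13.8 in control TWEAK lists, 2.58 in 1 untreated control list and no other Hs578T peak. The region on chromosome 2 whose central window is printed above (chr2:7824678-7827647) had no protein-coding start within 100 kb, and it had 13.3 and 16.5 with TWEAK and 8.69 and 5.78 in untreated control lists, with no peak in any Fn14 KO list. A region 25.3 kb from SELP (P-selectin, an adhesion receptor) had 13.4 and 14.1, and the region at a start of ARHGAP26, a GTPase-activating protein, 13.4 and 13.8. Another was 81.5 kb from CNOT4 and another 79.9 kb from MRPS27, and the other 3 had no start within 100 kb. All 10 had a peak in both MDA-MB-231 control TWEAK lists and 3 in both Fn14 KO TWEAK lists of that line. Of the 10, 8 lay between genes.

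The 10 strongest KO-only regions were acetylated in untreated cells as well. A region in an intron of UNC93A, with TTLL2 as the nearest start, had a fold enrichment of 15.04 and 13.7 in Fn14 KO TWEAK, 17.4 and 11.9 in untreated Fn14 KO and 7.47 and 9.97 in untreated control lists. The region nearest TTC7B (chr14:90511621-90514903) had 13.8 and 13.9 in Fn14 KO TWEAK and 11.2 and 10.3 in untreated control lists. A region within 2 kb of a start of LEFTY1, an inhibitor of NODAL signalling, had 10.2 and 12.2 in Fn14 KO TWEAK and 9.37 and 7.99 in untreated control lists. Regions nearest PTGIS (prostacyclin synthase), FRMD4A, PAX8, HS6ST1 and UNC93A, and 1 with no start within 100 kb, were likewise called in both untreated lists of either genotype. The exception was a region at a start of CACNA2D4, a calcium channel subunit (chr12:1809143-1814077), which had 13.0 and 14.1 in Fn14 KO TWEAK lists, 13.7 and 12.3 in untreated Fn14 KO lists and no peak in any control list of Hs578T. Hence 9 of the 10 had a peak in both untreated control lists and 10 of 10 in both untreated Fn14 KO lists. In MDA-MB-231, 8 had a peak in both Fn14 KO TWEAK lists and 1 in both control TWEAK lists.

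The NF-κB consensus was concentrated in the regions called in TWEAK-treated control cells alone. The central 500 bp of each region was searched on both strands for the NF-κB consensus and for AP-1 (TGANTCA), CRE (TGACGTCA), TEAD (GGAATG), ETS (CCGGAAG), RUNX (TGTGGTT), the MAF element (TGCTGANNC), the CAAT box (CCAAT) and the GC box (GGGCGG). The NF-κB consensus was present in 685 of the 2195 control-only regions without an untreated peak (31.2%), in 13.3% of those with one, in 9.17% of KO-only regions and in 13.5% of all consensus regions. AP-1 was present in 46.3% of control-only and 40.3% of KO-only regions, against 36.1% of all. RUNX was present in 17.9% of KO-only and 12.3% of control-only regions, against 12.6% of all, and reached 20.3% in KO-only regions with a peak in all 4 untreated lists. TEAD was present in 32.0% and 31.7%, against 29.1%. The GC box, typical of promoters, was present in 8.55% of control-only and 15.5% of KO-only regions against 22.6% of all, and ETS in 1.73% and 2.49% against 5.23%. CRE was rare, at 0.235% and 0.580% against 0.690%, while the CAAT box was present in 52.0% and 46.5% against 46.7%. The MAF element was present in 11.8% and 9.98% against 9.55%, and 26.5% of its matches overlapped an AP-1 match. Median GC content was 42.2% in control-only, 46.2% in KO-only and 46.0% in all regions, and its part in these shares was not tested. These shares describe regions, which are not replicates, and a match is a run of letters and not a measured binding site.

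**Figure D3:**
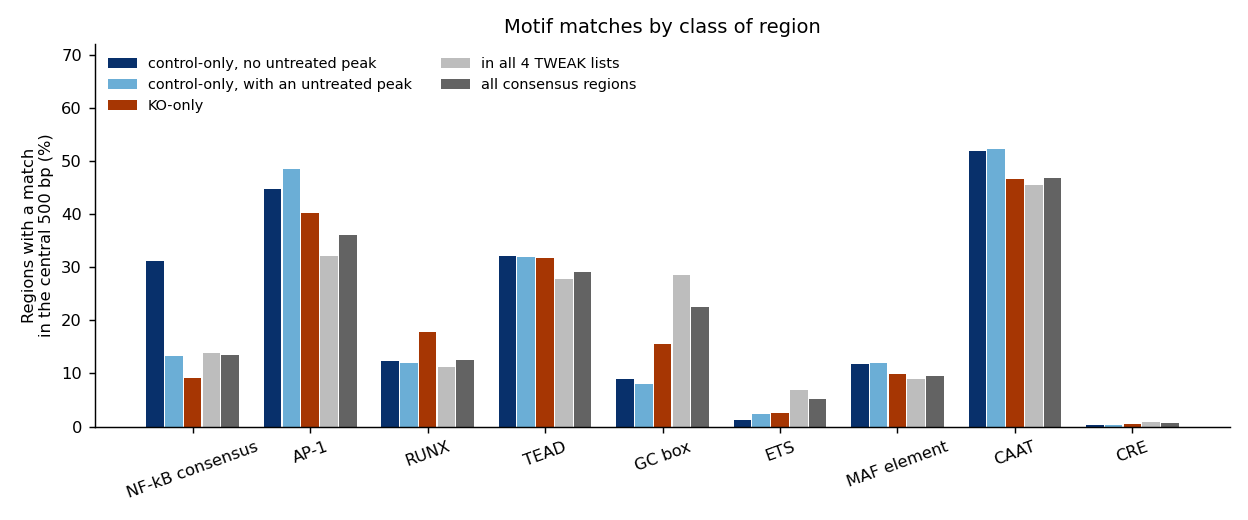
Percentage of regions whose central 500 bp held each motif on either strand, by class of region. The NF-κB consensus stands at 31.2% in control-only regions without an untreated peak and at or below 13.8% in the KO-only regions and the regions in all 4 lists.

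The regions with an NF-κB match behaved alike in the other line. Of the 685 control-only regions with a match and no untreated peak, 77.7% ± 3.10 (SD, n = 2) had a peak in MDA-MB-231 control TWEAK lists and 7.59% ± 0.826 in the Fn14 KO TWEAK lists. Of the 1510 without a match, 65.5% ± 3.89 and 11.5% ± 0.515 did. Median fold enrichment was 3.74 and 3.66 with a match and 3.40 and 3.42 without. Among control-only regions within 50 kb of a listed gene, a match was found in 6 of 9 for chemokines and 4 of 9 for NF-κB subunits and inhibitors. It was found in 3 of 7 for the TWEAK receptor pathway, including a region over the start of IL32, and in 0 of 3 for NAMPT. Over all 3825 control-only regions, 901 (23.6%) held a match, and the counts by list rest on few regions.

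Chemokine genes carried control-only regions and no KO-only region. Among all 20033 protein-coding genes, 16.1% had a control-only and 17.8% a KO-only region within 50 kb of a start. Of 14 chemokine genes, 10 had a control-only region and 0 a KO-only region. Neighbouring genes shared some of these regions (CXCL1 with CXCL6, CXCL2 and CXCL5 each with CXCL3, and CXCL10 with CXCL11), so the 10 genes are not independent. CXCL3, a neutrophil attractant, had 17.5 and 16.8 kb under peaks within 50 kb of its start in control TWEAK lists, 6.62 and 5.69 kb in Fn14 KO TWEAK lists, 6.34 and 6.61 kb in untreated control and 6.03 and 7.22 kb in untreated Fn14 KO lists. CCL5, a T cell attractant, had 4.10 and 2.54 kb in control TWEAK lists against 0.589 and 0 kb in the Fn14 KO TWEAK lists, with 2 control-only regions 8.76 and 11.1 kb upstream. The first of these had a fold enrichment of 6.17 and 5.66. A single control-only region touched the start of CCL20, which attracts CCR6-bearing cells, with 3.598 and 3.08. The region upstream of CXCL8 (interleukin-8) had 4.80 and 3.14. CCL2, CCL7 and CXCL12 had no covered base in any Hs578T list.

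Genes of TWEAK and NF-κB signalling were next. Of 11 genes of the TWEAK receptor pathway, 5 had a control-only (45.5%) and 2 a KO-only region (18.2%) within 50 kb, and of 14 NF-κB subunits and feedback inhibitors 6 (42.9%) and 3 (21.4%), beside 16.1% and 17.8% of all genes. The KO-only shares thus lay near that over all genes. TNFAIP3 (A20), an inhibitor of NF-κB, had 11.3 and 13.7 kb under peaks in control TWEAK lists against 3.30 and 3.58 kb in Fn14 KO TWEAK lists, with 4.08 and 4.03 kb in untreated control lists. BIRC3 had 23.03 and 31.7 kb against 14.96 and 12.9 kb, with 13.1 and 13.9 kb in untreated control lists, and it shares its 2 control-only regions with its neighbour BIRC2. In NFKB1, which encodes the p105/p50 subunit, a control-only region inside the gene had a fold enrichment of 7.74 and 7.92, and a KO-only region lay 22.96 kb upstream with 3.59 and 3.78 and was present in both untreated Fn14 KO lists (3.51 and 3.89). TNIP1, which binds A20, had 2 control-only regions and TRAF2, the adaptor that joins BIRC2 and BIRC3 to the receptor, likewise. NAMPT, the rate-limiting enzyme of NAD salvage and a gene the study followed, had 3 control-only regions with fold enrichments between 2.63 and 3.63. Length under peaks around NAMPT was 27.6 and 25.4 kb in control TWEAK lists, 9.08 and 7.99 kb in Fn14 KO TWEAK lists, 8.44 and 8.25 kb in untreated control and 8.91 and 8.55 kb in untreated Fn14 KO lists. For TNFAIP3, NAMPT and CXCL3 the control TWEAK lists thus stood above the other 6 lists, which lay together.

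**Figure D4:**
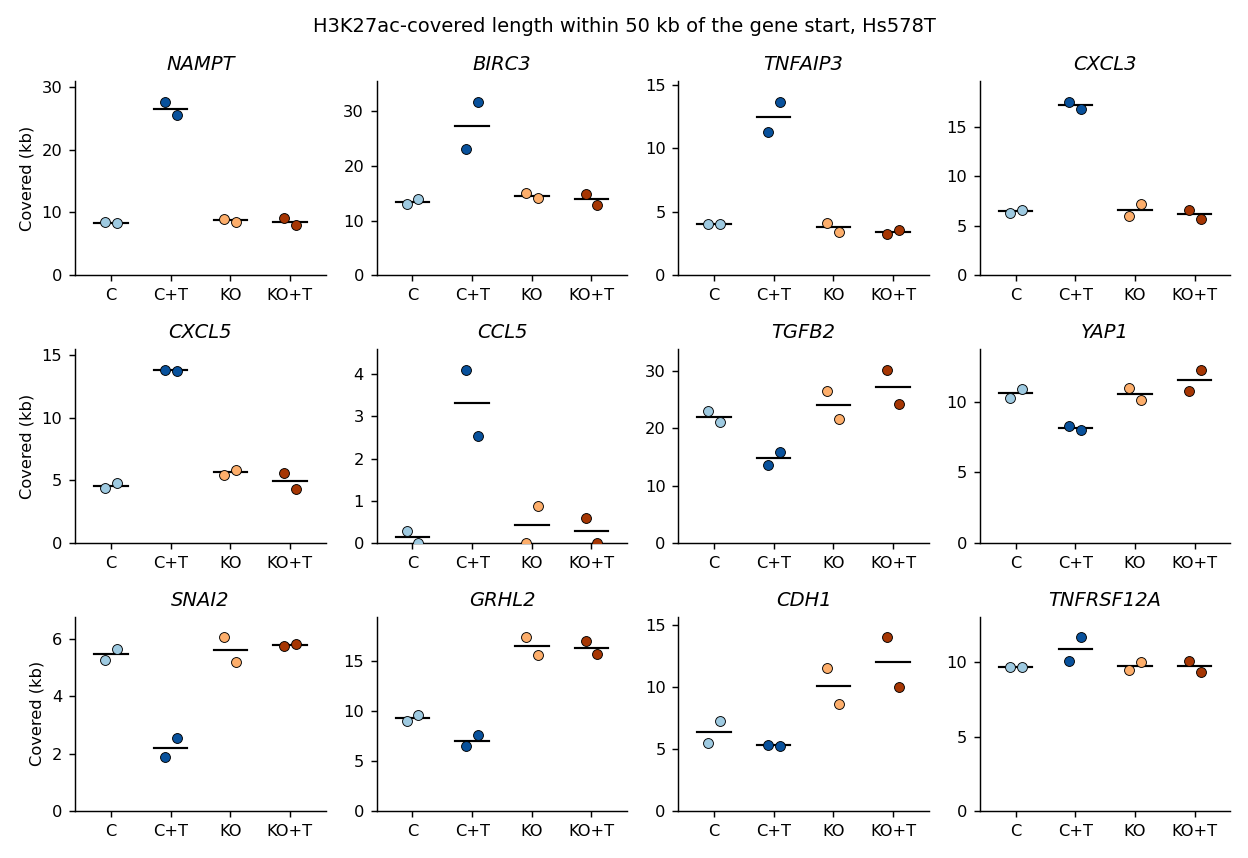
Length under H3K27ac peaks within 50 kb of the start of selected genes, in kb, for the 8 Hs578T lists (points, with lines at the mean of the pair) by group, where C is control, KO is Fn14 KO and +T is TWEAK. For NAMPT, TNFAIP3 and CXCL3 both control TWEAK lists lie above the other 6, and for genes such as TGFB2 and GRHL2 they lie below.

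In several lists more genes had a KO-only than a control-only region, beside 17.8% and 16.1% of all genes. Of 15 genes of the TGF-β and YAP/TEAD pathways, 7 had a KO-only and 5 a control-only region, of 12 integrins 6 and 3, of 10 epithelial-mesenchymal transition factors 4 and 1, of 14 AP-1 and small MAF factors 4 and 1, of 9 luminal markers 4 and 1, and of 20 ribosomal protein genes 5 and 2. The TGF-β and YAP/TEAD genes and the integrins thus carried regions of both kinds, with control-only shares also above that of all genes. TGFB2, a TGF-β ligand, had 13.6 and 15.9 kb under peaks in control TWEAK lists against 30.2 and 24.2 kb in the Fn14 KO TWEAK lists, with 22.9 and 21.0 kb in untreated control and 26.5 and 21.6 kb in untreated Fn14 KO lists. SNAI2 (SLUG), a transition factor, had 1.87 and 2.54 kb against 5.75 and 5.83 kb, with 5.27 and 5.64 kb in untreated control lists. YAP1, the coactivator of TEAD factors, had 8.28 and 8.01 kb against 10.8 and 12.3 kb. GRHL2, an epithelial factor, had 6.48 and 7.62 kb against 17.0 and 15.7 kb, and its untreated lists already differed by genotype, with 9.01 and 9.64 kb in control and 17.4 and 15.6 kb in Fn14 KO cells. CDH1 (E-cadherin) had 5.31 and 5.23 kb against 14.0 and 10.0 kb, with no peak at its start in any of the 4 lists. For TGFB2 and SNAI2 the control TWEAK lists stood below all others, whereas for GRHL2 genotypes were apart with and without TWEAK.

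The remaining lists had as many or more control-only genes. Control-only and KO-only regions were found near 4 and 1 of 16 interferon and STAT genes, 4 and 2 of 12 cytokines, 4 and 3 of 15 proteases and plasminogen activators and 4 and 3 of 14 NAD metabolism genes. The counts were equal for 20 collagen and matrix genes (6 each), 9 basal B markers (4 each) and 7 blood and endothelial markers (1 each). Around THBS1, a matrix glycoprotein, length under peaks was 8.16 and 10.0 kb in control TWEAK lists against 21.5 and 18.5 kb in the Fn14 KO TWEAK lists. MMP9, a gelatinase, had a control-only region 0.224 kb upstream of its start with a fold enrichment of 4.06 and 4.78.

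Some genes gathered many differing regions. PDE4DIP and ARHGEF28 had 6 control-only regions each, and VNN1, SBF2 and ARHGAP24 had 4. SBF2 had 4 KO-only regions as well and ARHGAP24 had 1, so SBF2 was balanced. PDE4DIP lies in duplicated sequence of chromosome 1, where reads may be placed on either copy, so its regions are uncertain. NDRG2, ARHGEF40, TMEM253, ZNF219 and RNASE8, all on chromosome 14, had the same 4 regions. VNN1 had 6.997 and 8.67 kb under peaks in control TWEAK lists against 0.555 and 0.908 kb in the Fn14 KO TWEAK lists. Among KO-only regions, ZBTB7C had 7, TIAM1 6, FRMD4A and GRAMD2B 5, and PTGIS, TLE3 and RGS3 4, while FRMD4A also had 2 control-only regions and GRAMD2B 1. PTGIS had 1.45 and 1.81 kb in control TWEAK lists, 14.3 and 12.2 kb in Fn14 KO TWEAK lists and 10.7 and 10.3 kb in untreated control lists. ZBTB7C had no covered base in either control TWEAK list and 4.51 and 3.69 kb in the Fn14 KO TWEAK lists, with 0.969 and 1.68 kb in untreated control and 5.07 and 3.33 kb in untreated Fn14 KO lists.

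Large domains were built by joining peaks within the default distance of the ROSE tool, and those with the most covered bases were called large at the bend of the ranked curve, as a stand-in for super-enhancers. Control lists had 1391 and 1116 large domains and Fn14 KO lists 1431 and 1366. Of 1757 merged large domains, 91 were control-only (5.18%) and 185 KO-only (10.5%), against 30 and 21 for both other groupings, while 895 were large in all 4 lists. The excess of KO-only domains was lost when peaks were joined within 5 kb (186 and 190) or when control TWEAK replicate 2 was left out (231 and 221), and it grew to 103 and 314 without replicate 1. The NAMPT domain (chr7:106245826-106287371) had 22.5 and 20.1 kb under peaks in control TWEAK lists, 5.49 and 4.71 kb in Fn14 KO TWEAK lists and 4.74 and 4.84 kb in untreated control lists. Other control-only domains included that of BIRC2 and BIRC3 (23.03 and 31.1 kb against 13.9 and 12.6 kb). For SPEN, the values of 17.0 and 18.1 kb against 17.1 and 16.5 kb overlapped, so that the class there turned on the cutoff of each list. KO-only domains held HSP90AA1, a cytosolic chaperone (12.4 and 19.0 kb in control and 41.6 and 47.0 kb in Fn14 KO TWEAK lists), and CLDN2, a tight-junction protein (16.01 and 18.2 kb against 31.8 and 24.4 kb). For HSP90AA1, untreated lists had 38.7 and 27.6 kb in control and 39.0 and 43.4 kb in Fn14 KO cells. For CLDN2, they had 17.8 and 22.7 kb in control and 27.3 and 23.9 kb in Fn14 KO cells. The domain with NAPRT, a further enzyme of NAD synthesis, had 16.8 and 17.7 kb in control and 20.6 and 21.7 kb in Fn14 KO TWEAK lists. Untreated control lists had 20.3 and 19.6 kb there. The same domain holds the starts of EEF1D, GFUS, GSDMD, MROH6, PYCR3, TIGD5 and ZC3H3.

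At the 34135 regions called in all 4 lists, which the control-only and KO-only rules leave aside, acetylation also differed in strength. The log2 fold enrichment, taken as the strongest peak of a region in each list and centred by the median of the list, was tested with limma. After Benjamini-Hochberg adjustment at 0.05, 5908 regions (17.3%) were higher and 6255 (18.3%) lower in Fn14 KO cells. The median change was 1.48-fold among higher and 1.53-fold among lower regions, with 585 and 989 of at least 2-fold and maxima of 4.92-fold and 8.32-fold. In untreated cells the same test over 36779 regions called 49 higher and 53 lower. At the 5830 regions lower with TWEAK that were tested untreated, the median log2 difference was −0.61 with TWEAK and −0.15 without, and 76.9% had the same sign. At 5865 higher regions the medians were 0.56 and 0.14, with 76.6% of the same sign, against 65.1% over all tested regions. Few were called the same way in untreated cells, 37 lower (0.63%) and 30 higher (0.51%), against 79 (0.24%) over all tested regions. Untreated replicates reached a Jaccard index of 0.770 in control and 0.789 in Fn14 KO cells, against 0.793 and 0.788 with TWEAK. How far the spread between untreated lists limited the untreated calls was not tested. The difference of the genotype contrast with and without TWEAK (the interaction, from all 8 Hs578T lists) was higher at 1661 regions (5.07%) and lower at 1883 (5.75%) of 32766 tested. Of its calls 46.9% were higher, and 36.6% without the centring of lists (1197 and 2070). Leaving out 1 list at a time gave between 648 and 1374 higher and between 872 and 1480 lower calls, both fewest without control TWEAK replicate 1. AP-1 matches stood in 42.2% of regions lower in Fn14 KO cells, 32.3% of those higher and 29.1% of the rest, while the NF-κB consensus stood in 13.3%, 11.9% and 14.5%. In the same order, median GC content was 43.4%, 48.0% and 49.0%, and the GC box stood in 13.2%, 25.5% and 33.8%. The part of base composition and promoter content in the AP-1 shares was not tested.

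The largest falls took regions from strong enrichment in treated control cells to near or below the level of untreated control cells. A region 5.67 kb from SELPLG, the selectin ligand PSGL-1 (chr12:108615902-108618657), had a fold enrichment of 28.2 and 26.9 in control TWEAK lists, 3.49 and 3.02 in TWEAK-treated Fn14 KO lists, 4.04 and 3.09 in untreated control and 2.97 and 3.02 in untreated Fn14 KO lists. Its log2 difference was −3.06 ± 0.13 (SE, limma adjusted p = 4.82e-09). In an intron of GPR107, 33.6 and 33.1 in control TWEAK lists stood against 4.16 and 4.53 in Fn14 KO TWEAK lists, with 4.06 and 4.39 in untreated control lists (−2.91 ± 0.13). A region in an intron of BCAS3, 72.1 kb from the T-box gene TBX2, had 26.9 and 26.7 against 3.77 and 3.47 (−2.86 ± 0.13). The other regions with the largest falls were nearest ARNT2 (−2.91), RFX8 (−2.86), ZC3H7B (−2.76), FABP6 (−2.66), MME (−2.64), GATA5 (−2.61) and PRRC2C (−2.51). MME encodes the cell-surface peptidase neprilysin, and FABP6 a bile acid binding protein whose region lay within 2 kb of a start. In all 10 regions the control TWEAK lists lay above the other 6 lists.

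The regions with the largest rises differed in their untreated lists. In an intron of PLEKHA7, an adherens junction protein (chr11:16980301-16983376), fold enrichment was 3.10 and 2.90 in control TWEAK lists, 12.8 and 15.1 in TWEAK-treated Fn14 KO lists, 12.6 and 11.1 in untreated control and 14.7 and 13.3 in untreated Fn14 KO lists (2.25 ± 0.14, limma adjusted p = 3.69e-08). NFATC2, a calcium-regulated factor, had 3.96 and 4.49 against 15.1 and 16.8 at its start, with 15.2 and 11.1 in untreated control lists. At both regions the control TWEAK lists stood apart from the other 6. In contrast, the region nearest FSIP2, 330 kb away, had 2.65 and 3.31 against 13.1 and 12.6 and no peak in either untreated control list. There the genotypes were apart with and without TWEAK. PRSS1 (2.30), FAN1 (2.18), MPRIP (1.93), MAL (1.91), AQP7 (1.89) and NHSL2 (1.89) were also among the 10.

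**Figure D5:**
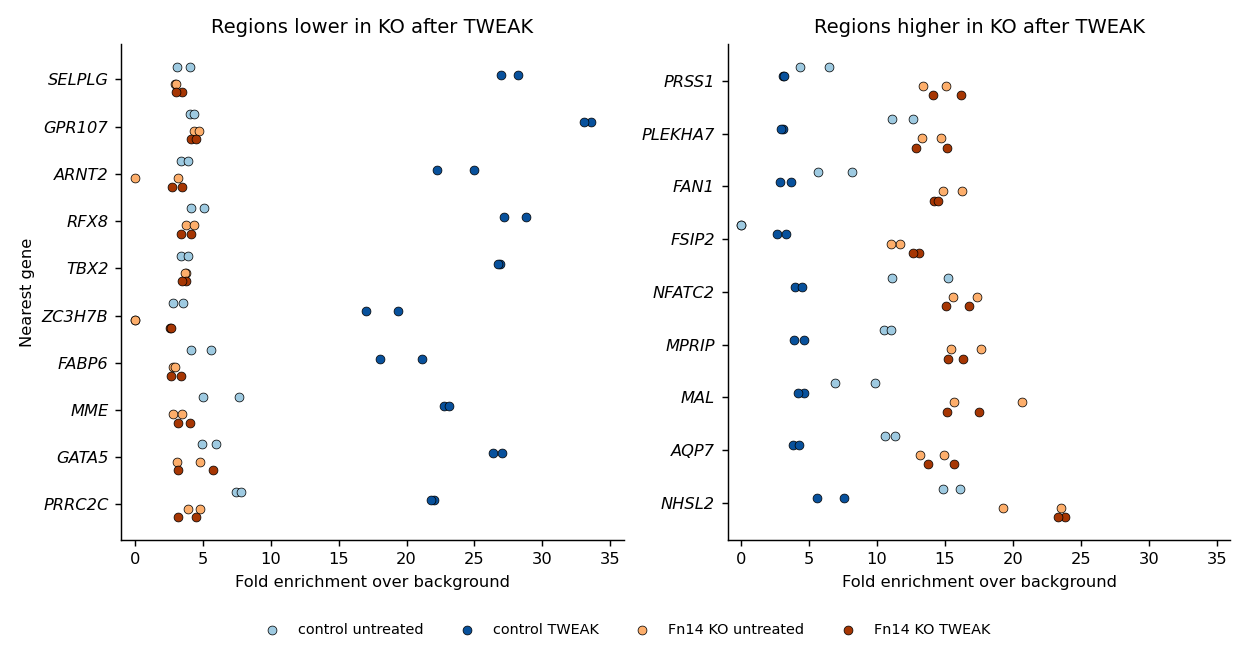
Fold enrichment over local background at the 10 regions with the largest fall and 9 of the 10 with the largest rise in Fn14 KO cells after TWEAK, by nearest gene, for the 8 Hs578T lists (points; 0 where a list had no peak). Control TWEAK lists lie far above all other lists in the first panel, while in the second panel untreated control lists range from near the Fn14 KO lists (NFATC2) through values in between (MAL, FAN1) to no peak (FSIP2).

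TNFRSF12A, the targeted gene, was lower in Fn14 KO cells with and without TWEAK. Its start region had a fold enrichment of 33.3 and 35.2 in control TWEAK lists, 19.8 and 22.03 in TWEAK-treated Fn14 KO lists, 34.02 and 32.6 in untreated control and 21.8 and 22.3 in untreated Fn14 KO lists. The log2 difference with TWEAK was −0.69 ± 0.13 (SE, limma adjusted p = 0.000782), and the interaction was −0.07 (adjusted p = 0.853). Acetylation at a start does not measure the disrupted protein and so does not check the knockout. A control-only region over the start of IL32, 44.4 kb from TNFRSF12A, carried an NF-κB match.

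Start regions in all 4 lists were tested for 11892 protein-coding genes, of which 1444 (12.1%) were higher and 984 (8.27%) lower in Fn14 KO cells, with a median log2 difference of 0.03. The interaction was called higher at 232 (1.97%) and lower at 244 (2.07%) of 11798 starts. Of 11 TWEAK receptor pathway genes, 5 were lower and 0 higher (median −0.27). TRAF2 fell from 14.0 and 14.998 to 7.27 and 6.44 (−1.05 ± 0.13), with 7.02 and 5.60 in untreated control lists. TRAF3 (−0.69), BIRC2 (−0.51) and BIRC3 (−0.43) also fell. Of 14 NF-κB genes, 5 were lower and 1 higher (median −0.31). CYLD, a deubiquitinase that restrains the pathway (−0.71), NFKB2, the p100/p52 subunit (−0.53), TNFAIP3 (−0.53), TNIP1 (−0.43) and NFKBIB (−0.38, a region shared with SIRT2) fell, and REL, the c-Rel subunit, rose (0.48). Of 15 interferon and STAT genes, 3 were lower and 0 higher (median −0.23), among them IFIT3 (−0.68) and IFIT2 (−0.37). The 20 ribosomal protein genes, a housekeeping list, had a median of −0.21 with 18 below 0 and 1 called, close to the medians of these 3 lists. IL7R, the interleukin-7 receptor, fell from 12.75 and 13.4 to 6.64 and 6.84 (−0.93 ± 0.13).

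Some AP-1 and matrix genes were higher at their starts. Of 14 AP-1 and small MAF factors, 4 were higher and 1 lower in Fn14 KO cells and 9 were not called, with a median of 0.05 beside 0.03 over all starts. FOS, an immediate early AP-1 subunit, had 10.98 and 11.8 in control TWEAK lists, 25.7 and 27.98 in TWEAK-treated Fn14 KO lists, 23.7 and 22.7 in untreated control and 29.1 and 30.5 in untreated Fn14 KO lists (1.27 ± 0.13). FOSB had 9.81 and 10.05 against 19.8 and 20.8 (1.06 ± 0.13). ATF3 (0.66) and MAFK (0.42) rose, MAFG fell (−0.66), and JUN stood at 13.7 and 12.4 against 13.2 and 12.2 (−0.01, adjusted p = 0.943). Of 14 collagen and matrix genes 6 were higher and 0 lower (median 0.18), among them COL1A1 (0.73), TNC (0.69), TGFBI (0.61) and COL12A1 (0.38), with COL4A1 and COL4A2 at 0.88 in 1 shared region. Of 10 integrins, ITGB8 (0.99), ITGB3 (0.76), ITGB5 (0.68) and ITGA6 (0.61) were higher and ITGA2 (−0.41) and ITGA5 (−0.37) lower (median 0.21). Of 15 TGF-β and YAP/TEAD genes, TGFBR1 (0.47) and TGFB2 (0.37) were higher and 0 lower.

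Other lists moved in both directions or little. NAMPT was higher at its start in Fn14 KO cells, at 26.1 and 27.4 against 21.4 and 17.8 (0.48 ± 0.14, adjusted p = 0.0144, interaction adjusted p = 0.103), while the length under peaks around it was lower. Of the other NAD genes, NADK rose (0.37) and NNMT, which methylates nicotinamide, fell (−0.80), so that with SIRT2 2 of 11 were higher and 2 lower (median 0.07). Among 4 chemokine starts CX3CL1 rose (0.54) and CXCL3 fell (−0.79), with a median of −0.01, and 10 of the 14 chemokine genes had no start region in all 4 lists. Of 8 cytokines 2 were higher (IL11 and LIF) and 2 lower (IL7R and CSF1). Of 7 proteases PLAT was higher (0.64) and PLAUR, the urokinase receptor, lower (−0.63). None of the 4 testable transition factors was called. RPL3 was the single ribosomal protein gene called of 20 (−0.47). Of the luminal markers GRHL2 (1.07), GATA3 (0.53) and ELF3 (0.51) were higher, 3 of 4 tested, and of 7 basal B markers FN1 (0.71) and CAV1 (0.39) were higher and CD44 (−0.60) lower.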

How the data were processed

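H3K27ac ChIP-seq peak lists were used, 1 per sample and 2 per group, with groups taken from the sample titles. Per the study's methods, the authors used Trimmomatic to trim reads and Bowtie2 for alignment to hg38, ran MACS2 on each sample with input subtraction and removed blacklisted regions with bedtools, with versions not given in the sources used here. The deposited score is 10 times the −log10 q-value without decimals. A further deposited column is a ratio, the fold enrichment against local background. The other deposited columns are −log10 p-values and q-values, all with −log10 q of at least 1.00. Library sizes were not analysed here, so the depth is unknown.

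Peaks were merged at 1 bp, and regions in at least 2 of 16 lists were kept. Per-list values were compared by exact permutation tests. Fold enrichment (log2, list medians aligned) was tested with limma 3.58.1 in R 4.3.3 on regions called in every list of the fit, as the deposited files hold no counts for the read-based tools of the study. Requiring a peak in every list leaves out the regions called in only some of the lists, among them all control-only and KO-only regions. Genes were protein-coding genes of GENCODE 44. Scripts ran in Python 3.11.15 with pandas 2.3.3 and scipy 1.17.1 and were tested on simulated data. Named regions were the 10 strongest control-only and KO-only regions, the 10 largest domains of each kind and the 10 largest limma changes in each direction, and named genes were the 10 with the most differing regions in each direction, TNFRSF12A, NAMPT and members of the lists (up to 4 by differing regions, and those whose start regions were called). Members and gene lists were chosen with earlier results of these data known, so counts over lists are descriptive. The guide sequences were not used here, and some of the genes this rule names are not reported here.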

Additional observations from a re-analysis of the deposited data

Results flagged for a closer look

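The difference between Fn14 KO and control cells itself differed between TWEAK-treated and untreated cells at many regions (limma interaction over the 8 Hs578T lists, Benjamini-Hochberg adjusted p below 0.05, positive where the difference was higher with TWEAK). It was positive at 1661 and negative at 1883 of 32766 regions, and positive at 232 and negative at 244 of 11798 gene starts. The regions given here are the 10 with the largest value in each direction, and the starts are those of 11 called list members. The largest positive values on the log2 scale were at regions nearest PLEKHA7 (2.03), FOXL3 (1.82), INHBB (1.82), PCTP (1.76), FRMD4A (1.75), MAP4 (1.71), ETS1 (1.70), SH3TC2 (1.68), LONRF2 (1.65) and OR1M1 (1.65). The largest negative values were nearest GPR107 (−2.99), TBX2 (−2.86), SELPLG (−2.79), RFX8 (−2.67), TNFSF10 (−2.34), RUNX2 (−2.25), COPB1 (−2.25), KCNJ8 (−2.23), FGF16 (−2.16) and FH (−2.16). At INHBB, which encodes a subunit of inhibins and activins, fold enrichment was 4.57 and 6.78 in control TWEAK lists, 21.5 and 18.3 in TWEAK-treated Fn14 KO lists, 20.1 and 18.6 in untreated control and 22.6 and 18.1 in untreated Fn14 KO lists. The region 81.7 kb from TNFSF10, the gene of the death ligand TRAIL, had 16.7 and 20.1 in control TWEAK lists against 2.81 to 4.16 in the other 6 lists.

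Among the starts of list members, the interaction was negative for TRAF2 (−1.28), IL7R (−0.81), CD44 (−0.70), BIRC3 (−0.66) and TRAF3 (−0.64), and positive for ITGB8 (1.09), FOS (0.93), FOSB (0.87), COL1A1 (0.72), IL11 (0.67) and ITGB5 (0.67).

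Covered length was higher in both Fn14 KO lists than in both control lists of TWEAK-treated Hs578T (by 7.38 Mb) and lower in MDA-MB-231 (−5.91 Mb), and median peak width differed by 98 bp in Hs578T and −21.5 bp in MDA-MB-231. In each line every Fn14 KO list lay on the same side of the control lists, and the difference between lines was not tested.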

How the results depend on the processing

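Of 640 alternatives, 397 concerned the named regions tested with limma, and all 397 kept their direction and side of the threshold. Those regions were picked as the largest changes of the main fit, so this count says little about other regions. A count was called moved beyond a factor of 1.5, and a share outside the 95% confidence interval of its main value. Among alternatives of the main results, 106 stayed the same, 48 moved and 1 reversed. Among all others, with the 397 included, 435 stayed the same and 50 moved. The number of peaks turned from higher to lower in Fn14 KO lists (−725, exact permutation p = 1) with −log10 q of at least 2. The shares of control-only regions without an untreated peak, of KO-only regions in all 4 untreated lists and of differing regions that differed the same way untreated moved to 59.2%, 44.9% and 10.3% with lists trimmed to the smallest, and to 54.5%, 38.7% and 9.74% in 500 bp bins, where the ratio to other groupings was 8.40. The latter pair was 46.1% and 10.1% with −log10 q of at least 2, and 46.8% and 9.58% with at least 3. With the highest-ranking 50% of each list, 2218 control-only and 2108 KO-only regions remained, of which 62.3% and 51.9% fell in those classes. Requiring 50% coverage gave 9.72% for regions differing the same way untreated. Within 1 kb of a start lay 3.76% and 8.90%. Genes near control-only and KO-only regions numbered 1938 and 2121 within 25 kb and 5527 and 5870 within 100 kb. In 1000 bp windows the NF-κB consensus was present in 33.2% of control-only regions, 41.8% of those without an untreated peak and 17.0% of KO-only regions. Leaving out 1 list at a time gave 4444 to 5007 control-only and 4141 to 5514 KO-only regions, 45.6% to 56.9%, 31.5% to 51.0% and 9.30% to 10.9% for the 3 shares, 4454 to 5354 higher and 5071 to 6042 lower regions, 648 to 1374 and 872 to 1480 interaction calls, and 103 to 231 control-only and 221 to 314 KO-only large domains. Control-only domains numbered 186 with 5 kb joining. Deviations of same-numbered replicates correlated at 0.07 between control TWEAK and Fn14 KO TWEAK, 0.23 between Fn14 KO TWEAK and untreated Fn14 KO, and −0.01 and −0.09 for the other pairs of groups, so numbers were not taken to pair samples. With the replicate number as a block, 6394 regions were higher and 6734 lower, and 1590 and 1787 for the interaction. Where a value moved, the cause was not tested. Depth is unknown, and 2 lists per group limit every exact test.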
